A study of Mus musculus with 8 samples.

Results

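Kidney expression was followed for 10 heat shock chaperone genes, Hsph1, Chordc1, Hspa1a, Hspa1b, Hspa8, Hsp90aa1, Hspb1, Dnajb1, Hspd1 and Hspe1. The members were all non-control array probes annotated to 1 of these genes, which gave 22 of the 56605 probes and 10 of the 36826 gene names on the array, with 1 to 4 probes per gene. The arrays were 1-colour Agilent expression arrays of whole kidney from male mice aged 20 weeks on the C57BLKS/J Iar background, in 4 groups of 2 mice. The first group was db/db mice, homozygous for the leptin receptor mutation Leprdb, given miRNA-181b-5p-mimic-PEI-NPs, that is, nanoparticles that carry a synthetic copy of miR-181b-5p (called mimic here). The second was db/db mice given control-miRNA-PEI-NPs (control miRNA), the third was untreated db/db mice, and the fourth was normal mice, labelled m/m with the strain m+/m+, which do not carry Leprdb. The normal mice therefore differed from db/db mice at the m marker as well as at Lepr, and no group received particles without RNA. The sources used here give no dose, route or schedule for the particles. Obesity and diabetes in db/db mice arise from loss of the long form of the leptin receptor in the whole animal, so the kidney is read as an organ of a diabetic mouse and not as a tissue in which 1 gene was altered.

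Heat shock chaperones bind unfolded proteins and help them fold, hold them in solution or pass them on. Most of the genes described here are induced by the transcription factor HSF1, which in the resting cell is kept inactive by chaperones and which, once freed by unfolded protein, forms a trimer and binds heat shock elements, repeats of a short unit in alternating direction. HSP70 proteins work in a cycle with J-domain proteins, which bring substrate and start ATP hydrolysis, and with HSP110 proteins, which exchange the nucleotide. In kidney, HSP70 and the small heat shock protein HSPB1 are known to be induced in tubules by ischaemia and by the high salt and urea of the inner medulla.

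A level is the background-corrected intensity of a probe divided by the 75th percentile of its array, on the log2 scale, so that 0 is the 75th percentile. Levels were compared between groups and not between probes, because probes differ in how brightly they bind. Probes were tested if both arrays of any group read them well above background. This kept 21 of the 22, and all 21 were well above background on all 8 arrays. The remaining probe, Hsp90aa1 A_55_P2352652, was well above background on 2 arrays and was not tested. A model of 4 group means was fitted with limma to all 33639 probes that passed this filter, and a probe passed at a Benjamini-Hochberg adjusted p under 0.05. With 2 mice per group an exact permutation test of 1 probe between 2 groups cannot go below p = 0.333. Every limma p here rests instead on a variance that each probe pools over all 4 groups (4 residual degrees of freedom). That variance is then drawn toward the one shared between probes (2.37 prior degrees of freedom). This assumes normal errors and the same variance in every group, although the mimic arrays spread more than the others. The test among all 4 groups uses the same variance.

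The mimic arrays differed from each other more than the arrays of any other group, with r = 0.976 between them and 10.2% of tested probes over 2-fold apart, against 1.51% for control miRNA, 0.815% for untreated db/db and 3% for normal kidney. On the leading principal component (43.6% of the variance), mimic replicate 1 scored 91.6 and mimic replicate 2 scored 22.9. The share of spots well above background ran from 56.5% to 62.5% per array, and 0 spots were saturated. All arrays shared 1 slide, on which the mimic and control miRNA arrays lay in row 2 and the untreated db/db and normal arrays in row 1, with columns also split by group, so that place on the slide and group cannot be told apart. The probe A_55_P2506350 of Lepr was lower in untreated db/db than in normal kidney (log2 difference -2.16, limma adjusted p = 0.0482), and A_55_P2177910 differed by -0.80 (adjusted p = 0.0513). All 6 proximal tubule markers were tested, and the log2 of their added levels ran from 8.77 to 9.77 on the 8 arrays, with mimic replicate 1 the lowest. In whole kidney, fewer cells of a type and less RNA per cell cannot be told apart.

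The cytosolic chaperones of the set lay higher after the mimic than in both other db/db groups, and the mitochondrial ones barely differed between the db/db groups. In mimic over control miRNA, 20 of 21 probes had a log2 difference above 0, where 43.2% of all tested probes did. Both mimic arrays lay above both control miRNA arrays for 19 of the 21 probes (90.5%), against 16.6% of all tested probes, and below them for 1, against 23.1%. The median log2 difference of the 21 probes was 0.50, beside -0.04 over all tested probes. None of the 21 passed the limma test after adjustment, with 0.251 as the smallest adjusted p, and percent called over all probes was 0. At an unadjusted p under 0.05, 10 of 21 probes passed (47.6%), against 9.60% of all tested probes. These 21 probes belong to 10 genes and several share a transcript, so they are not 21 separate observations.

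Setting the mimic against untreated db/db kidney gave the same kind of picture. There, 20 of 21 probes lay above 0, against 44.1% of all tested probes, and 16 had both mimic arrays above both untreated arrays, a pattern shown by 20.8% of all tested probes. The median was 0.56, beside -0.04 over all tested probes. Again none passed by limma (smallest adjusted p 0.119, percent called 0), while 11 passed at an unadjusted p under 0.05, beside 14.2% of all tested probes. This comparison shares the mimic arrays with the previous one. Both mimic arrays lay below both untreated arrays for 1 probe, beside 27.0% of all tested probes. Control miRNA over untreated db/db had a median of 0.04 over the 21 probes and 15 probes above 0 (48.5% of all tested probes). It had 4 probes whose groups did not overlap on the higher side (19.8% of all tested probes) and 2 on the lower side (20.4%). In that comparison 0 probes passed by limma, 0 of 21 had an unadjusted p under 0.05, and percent called was 0 by the first rule and 3.70 by the second.

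Against normal kidney, the diabetic groups without the mimic lay lower. In untreated db/db over normal, 13 of 21 probes had both db/db arrays below both normal arrays, beside 36.7% of all tested probes, and 0 lay without overlap on the higher side, beside 26.9%. The median was -0.37, against -0.06 over all tested probes. Only 3 probes had a difference above 0, beside 43.8% of all tested probes. By limma, 1 of 21 passed, beside 4.19% of all tested probes; it fell, as did 2.90% of all tested probes. At an unadjusted p under 0.05, 8 passed, beside 25.9%. In control miRNA over normal, 12 of 21 lay without overlap on the lower side (34.4% of all tested probes) and 0 on the higher side (24.8%), 3 lay above 0 (43.7%) and the median was -0.24. In that comparison none passed by limma (smallest adjusted p 0.112, percent called 1.65) and 8 had an unadjusted p under 0.05 (22.1% of all tested probes). In mimic over normal, 14 lay above 0 (40.3% of all tested probes), 7 lay without overlap on the higher side (20.0%) and 2 on the lower side (33.8%). There none passed by limma (smallest adjusted p 0.0531, percent called 8.14), and 7 had an unadjusted p under 0.05 (29.8% of all tested probes). Across all 4 groups at once, the limma F test passed 0 of 21 probes (smallest adjusted p 0.0576; 2.64% of all tested probes passed), and 11 had an unadjusted p under 0.05 (24.3% of all tested probes).

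**Figure D1:**
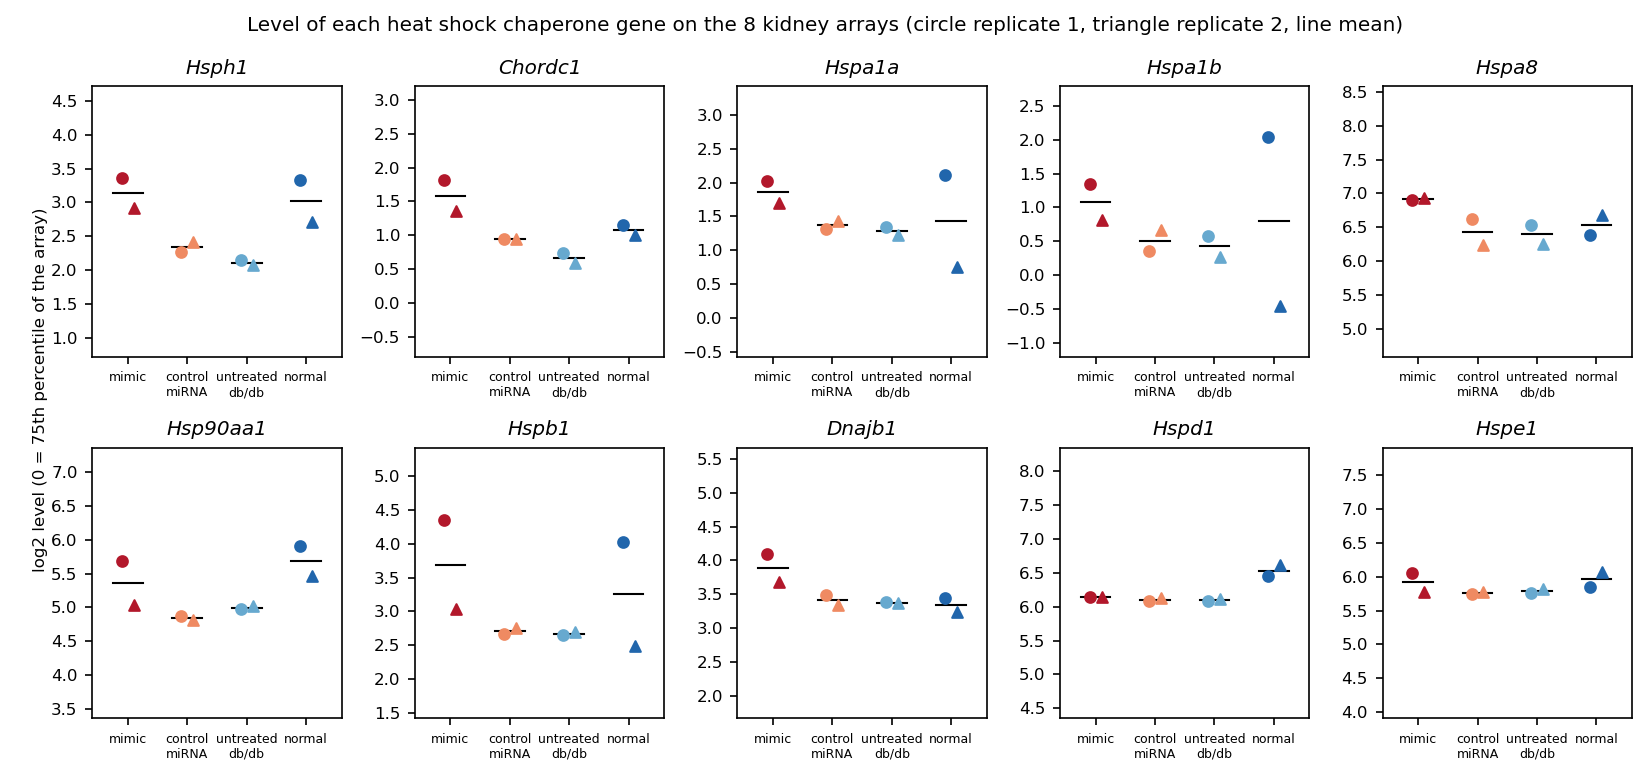
Log2 level of the brightest probe of each of the 10 genes on the 8 arrays, with circles for replicate 1, triangles for replicate 2 and lines for group means, and with 0 at the 75th percentile of the array. Both mimic arrays lie above both control miRNA arrays in every panel, narrowly so for Hspd1 and Hspe1, while the normal arrays of Hspa1a, Hspa1b and Hspb1 lie far apart.

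Hsph1 encodes HSP105, an HSP110 protein that exchanges nucleotide on HSP70. Its 3 probes lie on the minus strand of chromosome 5, with the outermost 14878 bases apart on the mm9 genome, introns included. Probes A_55_P2176963 and A_55_P2003513 lie close together at the 3′ side, and A_55_P2931347 lies far upstream of them. The middle one is shown as an example of what the array reads, at chr5:150420110-150420169 (mm9, minus strand), as given 5′ to 3′ by the array annotation.
Hsph1 probe A_55_P2003513: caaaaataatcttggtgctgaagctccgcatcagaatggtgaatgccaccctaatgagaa
The brightest probe, A_55_P2176963, had log2 levels of 3.36 and 2.92 after the mimic, 2.27 and 2.41 after control miRNA, 2.15 and 2.08 in untreated db/db, and 3.34 and 2.72 in normal kidney. The mimic and normal arrays overlapped, and all 4 of them lay above the 4 other db/db arrays. The log2 difference was 0.80 in mimic over control miRNA (95% interval 0.22 to 1.39, adjusted p = 0.410), 1.03 in mimic over untreated db/db (adjusted p = 0.190), and -0.92 in untreated db/db over normal (-1.50 to -0.33, adjusted p = 0.0842), all by limma. Without normal replicate 1 the last value was -0.605. Mimic over normal was 0.12 (-0.47 to 0.70).

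The other Hsph1 probes gave the same order of groups against db/db kidney. A_55_P2003513 had 1.91 and 1.39 after the mimic, 0.80 and 0.85 after control miRNA, 0.75 and 0.59 in untreated db/db, and 1.94 and 1.28 in normal kidney. A_55_P2931347 had -2.89 and -2.99 after the mimic, -3.94 and -3.75 after control miRNA, -4.04 and -3.87 in untreated db/db, and -2.45 and -3.52 in normal kidney. For both, the mimic arrays lay above both other db/db groups without overlap, and the normal arrays did too. Their log2 differences were 0.82 and 0.90 in mimic over control miRNA, and -0.94 and -0.97 in untreated db/db over normal. The probe nearest the 5′ end spread most in normal kidney, where replicate 1 exceeded replicate 2 by 1.07.

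Chordc1 encodes CHP-1 (morgana), a zinc-binding partner of HSP90. The probe A_52_P637199 held the single passing result of the set, and its sequence is therefore given. Its annotated span, chr9:18113206-18114277 (mm9, plus strand), is longer than its 60 bases, so the probe crosses a splice junction and reads spliced mRNA.
Chordc1 probe A_52_P637199: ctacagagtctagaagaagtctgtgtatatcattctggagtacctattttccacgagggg
The probe had log2 levels of -0.89 and -1.22 after the mimic, -2.03 and -1.79 after control miRNA, -2.07 and -2.36 in untreated db/db, and -1.19 and -1.36 in normal kidney. Relative to normal kidney, the untreated db/db level fell by 0.94 on the log2 scale (95% interval -1.39 to -0.50, SE 0.18, limma adjusted p = 0.0474), which is 1.92-fold lower, with both db/db arrays below both normal arrays. The call is marginal, and it was lost when any 1 of the 6 arrays outside the mimic group was left out. In mimic over control miRNA the difference was 0.85 (0.41 to 1.30, adjusted p = 0.251), and in mimic over untreated db/db 1.16 (0.72 to 1.61, adjusted p = 0.119), without overlap in either.

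The remaining Chordc1 probes placed normal kidney differently. The brightest, A_51_P305843, had 1.81 and 1.36 after the mimic, 0.95 and 0.95 after control miRNA, 0.74 and 0.59 in untreated db/db, and 1.16 and 1.01 in normal kidney. Here each group lay apart from the next in the order mimic, normal, control miRNA, untreated db/db. A_52_P338479 had -2.01 and -2.28 after the mimic, -3.21 and -2.78 after control miRNA, -2.87 and -3.12 in untreated db/db, and -2.68 and -2.89 in normal kidney, where the normal and untreated arrays overlapped. Untreated db/db over normal was -0.41 (adjusted p = 0.205) and -0.21 (adjusted p = 0.554) for these probes, so the 3 probes disagree on the size of that difference. They were closer on the mimic: 0.64, 0.85 and 0.85 in mimic over control miRNA.

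Hspa1a and Hspa1b encode the stress-inducible HSP70 and are near-identical neighbours on chromosome 17. The probes of the pair share no run longer than 5 bases, although the array annotation places only 32 bases of the Hspa1b probe on mm9, so its specificity is less certain. Hspa1a had log2 levels of 2.02 and 1.70 after the mimic, 1.32 and 1.44 after control miRNA, 1.34 and 1.23 in untreated db/db, and 2.10 and 0.75 in normal kidney. Hspa1b had 1.34 and 0.81 after the mimic, 0.35 and 0.66 after control miRNA, 0.58 and 0.27 in untreated db/db, and 2.04 and -0.46 in normal kidney. The normal arrays held the highest and the lowest level of both genes, with replicate 1 above replicate 2 by 1.36 for Hspa1a and by 2.50 for Hspa1b. Mimic over control miRNA was 0.48 for Hspa1a (95% interval -0.50 to 1.46, limma adjusted p = 0.697) and 0.57 for Hspa1b (-1.20 to 2.34, adjusted p = 0.796). These intervals span both directions. Their width comes largely from the normal arrays, since the model pools the spread of all 4 groups. The Hspa1b standard deviation was 1.769 in normal kidney, 0.374 after the mimic and 0.217 after control miRNA. For Hspa1a these were 0.959, 0.226 and 0.084. Both mimic arrays lay above both control miRNA arrays for either gene, as they did for 16.6% of all tested probes. No difference from normal kidney can be read at this spread: untreated db/db over normal was -0.14 for Hspa1a (-1.12 to 0.84) and -0.37 for Hspa1b (-2.14 to 1.40). The pair correlated at r = 0.969 over the 8 arrays, where the normal arrays set the whole range.

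Normal replicate 1, the array with the highest Hspa1a and Hspa1b, also had the highest summed markers of tissues that adjoin the kidney. Not each marker was highest there: the urothelium gene Krt5 was 0.333 on it and 0.744 on mimic replicate 1. The log2 of the added levels of 6 adipocyte markers was 3.18 to 3.63 on the 6 db/db arrays, and 6.08 and 3.29 on normal replicates 1 and 2, and Fabp4, at 3.099 to 3.545 on the db/db arrays, made up most of the db/db value. For 6 urothelium markers it was -0.09 to 2.585 on the db/db arrays, and 3.62 and 1.76 on the normal ones. Between the normal arrays, 4 of 6 adipocyte and 6 of 6 urothelium markers were higher in replicate 1, with the adipokine gene Adipoq at 0.385 on replicate 1 and -3.26 on replicate 2. Control miRNA replicate 1 had the highest urothelium value of the db/db arrays (2.585) and Adipoq at -1.45. Its Hspa1a was 1.32, its Hspa1b 0.35 and its Hspb1 2.67, beside 1.44, 0.66 and 2.75 on control miRNA replicate 2. The part of these tissues in the Hspa1a, Hspa1b and Hspb1 levels of normal replicate 1 was not tested.

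Hspa8 encodes HSC70, the HSP70 that cells make without stress and that also uncoats clathrin vesicles. Its brightest probe, A_55_P2069721, had log2 levels of 6.90 and 6.93 after the mimic, 6.62 and 6.24 after control miRNA, 6.53 and 6.26 in untreated db/db, and 6.38 and 6.68 in normal kidney. The mimic arrays agreed closely and lay above the 6 others, while the remaining 3 groups overlapped. Mimic over control miRNA was 0.49 (95% interval 0.03 to 0.94, limma adjusted p = 0.502) and mimic over normal was 0.385 (adjusted p = 0.226). All 4 probes placed both mimic arrays above all 6 others, with differences of 0.48 to 0.62 in mimic over control miRNA and 0.385 to 0.70 in mimic over normal. Unlike Hsph1, Hspa8 showed no common direction in untreated db/db over normal, where the 4 probes ran from -0.275 to 0.14. Hspa8 and Hspa1b were unrelated over the 8 arrays (r = 0.003).

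Dnajb1 encodes HSP40, the J-domain partner of inducible HSP70. It had log2 levels of 4.09 and 3.69 after the mimic, 3.48 and 3.34 after control miRNA, 3.38 and 3.365 in untreated db/db, and 3.44 and 3.24 in normal kidney. Only the mimic arrays stood apart, above all 6 others. The difference was 0.48 in mimic over control miRNA (95% interval 0.07 to 0.89, limma adjusted p = 0.470) and 0.55 in mimic over normal (0.14 to 0.96, adjusted p = 0.0971). Untreated db/db over normal was 0.03 (-0.38 to 0.44), which leaves room for changes of about that interval in either direction.

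Hsp90aa1 encodes the inducible cytosolic HSP90, which matures kinases and steroid receptors. The probe A_55_P2796341 had log2 levels of 5.69 and 5.04 after the mimic, 4.87 and 4.82 after control miRNA, 4.97 and 5.02 in untreated db/db, and 5.91 and 5.46 in normal kidney. Mimic and normal arrays overlapped, and mimic replicate 2 lay just above the highest untreated db/db array. The log2 difference was 0.52 in mimic over control miRNA (95% interval -0.07 to 1.12, limma adjusted p = 0.563), -0.69 in untreated db/db over normal (-1.28 to -0.09, adjusted p = 0.149) and -0.84 in control miRNA over normal (adjusted p = 0.125). The second probe, A_55_P2740832, gave 0.50 and -0.64 in mimic over control miRNA and in untreated db/db over normal. On that probe mimic replicate 2, at 4.28, lay between the untreated db/db arrays, at 4.14 and 4.32.

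Hspb1 encodes HSP25 in mouse, a small heat shock protein that holds unfolded protein and steadies actin. It had log2 levels of 4.35 and 3.04 after the mimic, 2.67 and 2.75 after control miRNA, 2.65 and 2.69 in untreated db/db, and 4.03 and 2.50 in normal kidney. Both mimic arrays lay above the other db/db arrays, but replicate 1 exceeded replicate 2 by 1.31 after the mimic and by 1.53 in normal kidney. Mimic over control miRNA was 0.98 (95% interval -0.41 to 2.37, limma adjusted p = 0.609), the highest difference of the 10 genes and 1 of those with the widest intervals. Untreated db/db over normal was -0.59 (-1.98 to 0.80, adjusted p = 0.558).

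Hspd1 and Hspe1 encode the mitochondrial chaperonin HSP60 and its lid HSP10, from 1 bidirectional promoter. Hspd1 probe A_51_P282706 had log2 levels of 6.141 and 6.137 after the mimic, 6.09 and 6.12 after control miRNA, 6.09 and 6.12 in untreated db/db, and 6.45 and 6.61 in normal kidney. The 6 db/db arrays lay within a narrow band below both normal arrays. Mimic over control miRNA was 0.03 (95% interval -0.25 to 0.32, limma adjusted p = 0.937), and untreated db/db over normal was -0.425 (-0.71 to -0.14, adjusted p = 0.0900). The second Hspd1 probe, A_55_P2846649, had 3.12 and 3.13 after the mimic, 3.16 and 3.30 after control miRNA, 3.235 and 3.27 in untreated db/db, and 3.57 and 3.68 in normal kidney. On it the mimic was the lowest group, at -0.105 from control miRNA (-0.39 to 0.18, adjusted p = 0.766) and -0.50 from normal (-0.785 to -0.215, adjusted p = 0.0531).

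Hspe1 had the narrowest range over the 8 arrays among the brightest probes of the 10 genes. Its probe A_66_P124952 had log2 levels of 6.06 and 5.78 after the mimic, 5.75 and 5.77 after control miRNA, 5.76 and 5.825 in untreated db/db, and 5.85 and 6.07 in normal kidney. The groups overlapped except that both mimic arrays lay above both control miRNA arrays, and both normal arrays above the control miRNA and untreated db/db arrays. Over its 3 probes the difference was 0.02 to 0.165 in mimic over control miRNA and -0.17 to -0.135 in untreated db/db over normal, with limma adjusted p of 0.667 or more and 0.448 or more. The upper 95% bounds of the mimic difference were 0.32 to 0.52, so a difference as large as the 0.80 of Hsph1 lies outside them. Over the 8 arrays Hspd1 and Hspe1 correlated at r = 0.609, while Hspd1 and Dnajb1 correlated at r = -0.349, with arrays of a group not independent of one another.

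**Figure D2:**
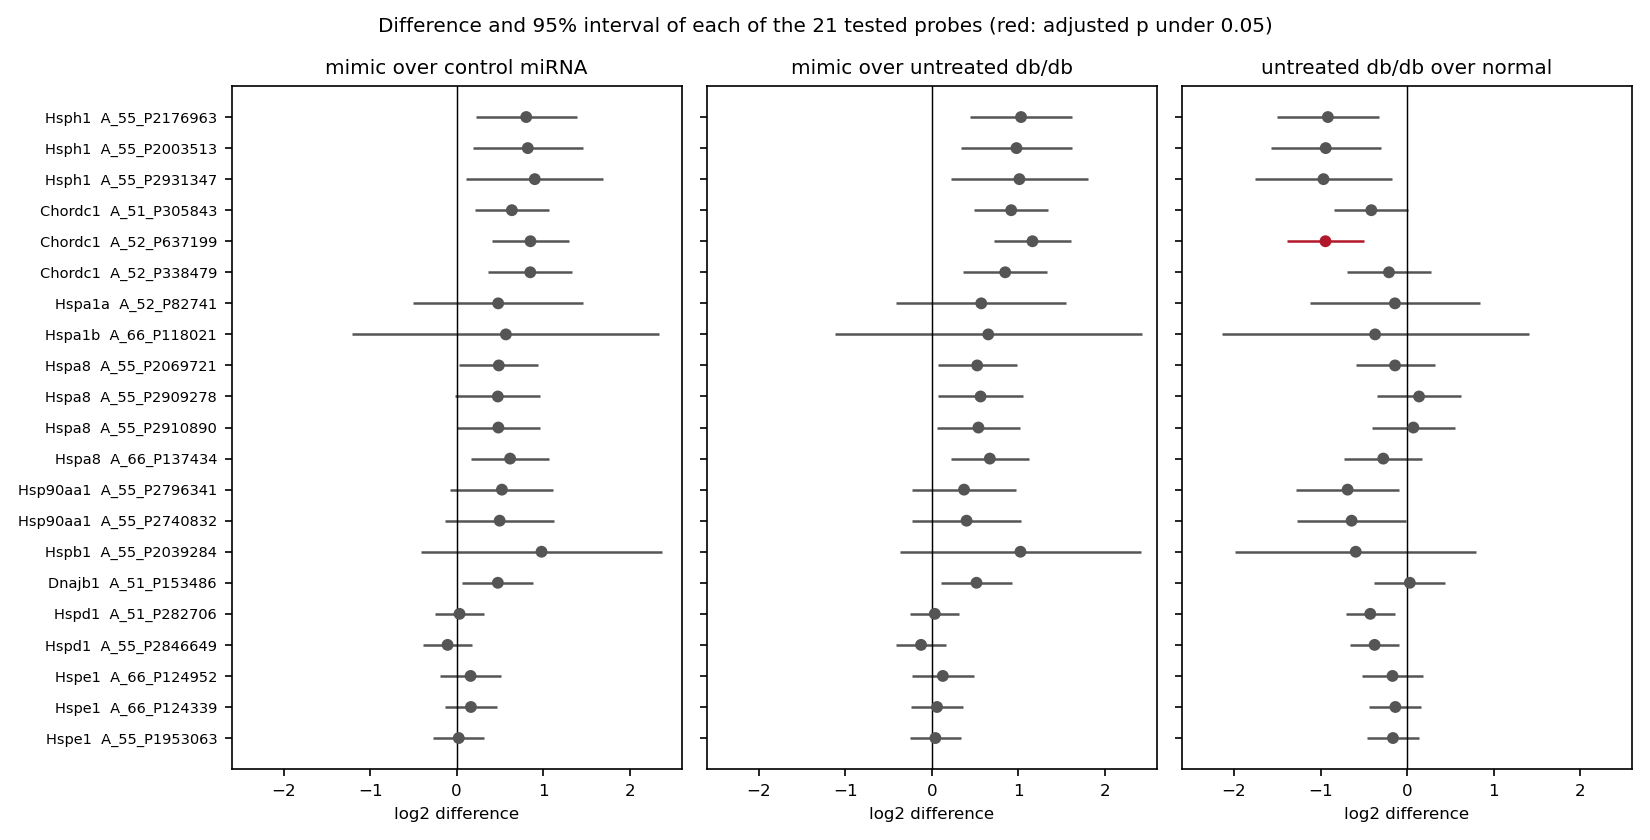
Log2 difference and 95% interval of each of the 21 tested probes in mimic over control miRNA, mimic over untreated db/db, and untreated db/db over normal, with the 1 probe at an adjusted p under 0.05 in red. The Hsph1 and Chordc1 probes lie right of 0 in the first pair of panels and left of 0 in the last, and the Hspa1a, Hspa1b and Hspb1 intervals are the widest.

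The order of the groups differed between genes. By mean level of the brightest probe, the mimic group was highest for 7 genes and normal kidney for 3, namely Hsp90aa1, Hspd1 and Hspe1. Untreated db/db was lowest for 7 genes, control miRNA for 2 (Hsp90aa1 and Hspe1) and normal kidney for 1 (Dnajb1). Untreated db/db over normal and mimic over control miRNA share no arrays, so their values can be set side by side. The first had 18 of 21 probes below 0 and the second 20 of 21 above 0, and with margins this lopsided the number of probes that do both carries no information of its own. Over the 21 probes, which share genes and the normalization, the values correlated at r = -0.508. Hsph1, Chordc1, Hsp90aa1 and Hspb1 had differences beyond 0.4 in opposite directions in this pair of comparisons, except for Chordc1 A_52_P338479, which was -0.21 in the first. Hspa8 and Dnajb1 differed in the second, by 0.48 to 0.62, and by no more than 0.28 in the first. The 2 Hspd1 probes were at -0.425 and -0.375 in the first and at 0.03 and -0.105 in the second.

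**Figure D3:**
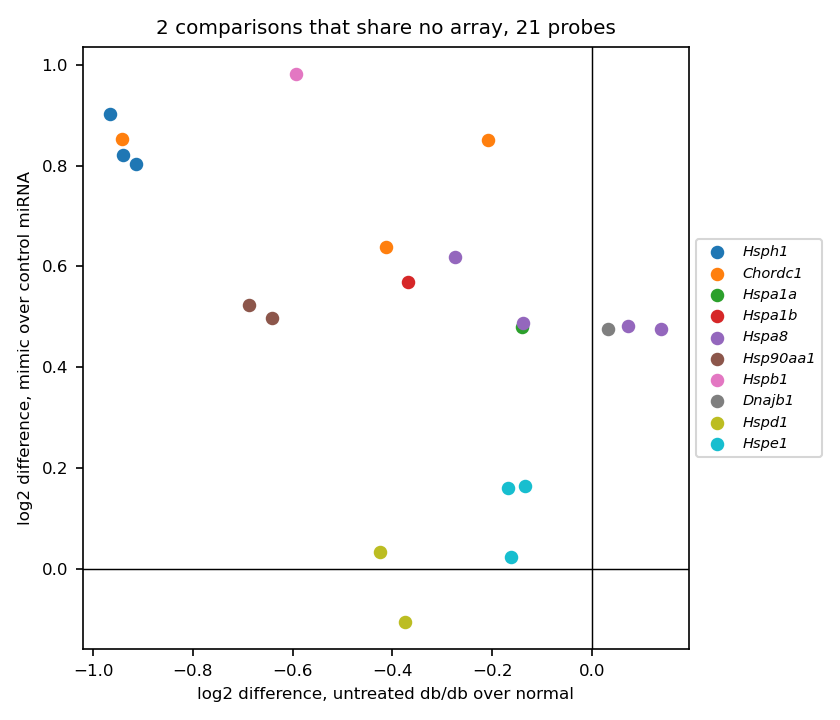
Log2 difference of the 21 tested probes in mimic over control miRNA (vertical axis) against untreated db/db over normal (horizontal axis), with 1 colour per gene. The Hsph1 probes and 1 Chordc1 probe lie farthest to the left and high up, the Hspa8 and Dnajb1 probes lie near 0 on the horizontal axis, and the Hspd1 and Hspe1 probes lie lowest on the vertical axis.

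The chaperone probes mostly lay higher on mimic replicate 1 than on replicate 2, while other probes did not lean that way. Replicate 1 was above replicate 2 for 17 of 21 probes, beside 44.9% of all tested probes, with a median of 0.28 beside -0.05. Of the 21, 1 (Hspb1) was over 2-fold higher in replicate 1, beside 4.78% of all tested probes. Mimic replicate 1 was also far above the other arrays for markers outside the set. Here the summed level of a list is the log2 of its genes' added linear levels, so the brightest gene weighs most. For 8 tubular injury genes it was 9.755 on mimic replicate 1, against 8.09 on mimic replicate 2 and 6.86 to 8.04 on the 6 other arrays, and all 8 genes were higher on replicate 1 than on replicate 2. For 10 immediate early genes it was 5.86 on mimic replicate 1, against 4.76 on mimic replicate 2 and 3.98 to 4.51 on the others, with 8 of 10 higher on replicate 1. Both sums were thus higher on both mimic arrays than on every other array, narrowly so for the injury sum on replicate 2. Most single genes did not follow on replicate 2. Only Clu (6.70), Jun (2.78), Junb (3.15), Atf3 (-3.23) and Ier3 (1.87) lay above the 6 other arrays on it. Lcn2 (-1.32) and Egr2 (-5.58) were lowest of the 8 arrays there. For 5 neutrophil markers it was 5.115 on mimic replicate 1, against 1.08 on mimic replicate 2 and 1.05 to 1.455 on the others, with 4 of 5 higher on replicate 1. S100a9 (4.58) and S100a8 (2.80) carried that sum, while Mpo was lowest of the 8 arrays there (-5.025). Some lists of kidney cells were lowest on mimic replicate 1. The proximal tubule list was 8.77 on it and 9.43 to 9.77 on the 7 other arrays, and 5 collecting duct markers were 4.43 on it and 5.11 to 5.57 on the others. Not every gene followed its list. The proximal tubule gene Slc22a6 was 6.77 on mimic replicate 1 and 6.40 on replicate 2. Of the collecting duct genes, Atp6v1g3 was highest of the 8 arrays there (-0.81), and Scnn1g (0.99) lay above both normal arrays. The podocyte list was highest on mimic replicate 1 (4.77, beside 3.53 to 4.55). Red cell genes were 7.42 and 1.79 on the mimic arrays, 6.94 and 5.75 after control miRNA, 6.40 and 6.98 in untreated db/db, and 2.27 and 3.29 in normal kidney. The part of these cells and responses in the chaperone levels was not tested.

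The sizes and calls in the mimic comparisons depended on which mimic array was present. Without mimic replicate 1, mimic over control miRNA was 0.58 for Hsph1 and 0.50 for Hspa8, and it was smaller by about 1.5 times or more for Chordc1 (0.41), Hspa1a (0.32), Hspa1b (0.305), Dnajb1 (0.27), Hsp90aa1 (0.20), Hspb1 (0.325) and Hspe1 (0.02). Without mimic replicate 2 it was 0.85 for Hsp90aa1 and 1.64 for Hspb1, and mimic replicate 1 alone stood for the group and was assumed to vary like the others. Then 4 of 21 probes passed in mimic over control miRNA and 6 in mimic over untreated db/db, beside 4067 and 5661 of all tested probes. Without mimic replicate 1, none passed in either comparison.

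Other chaperone genes were read from lists of HSF1 regulators, HSP90, HSP70 and HSP110 families, J-domain proteins, small heat shock proteins, the TRiC/CCT chaperonin and other stress genes, 80 genes in all, of which 79 were tested. In mimic over control miRNA 0 of 79 passed by limma, beside 0 of all tested probes, and their median was 0.08, against -0.04 over all tested genes. In mimic over untreated db/db 0 passed, again beside 0 of all tested probes, with a median of 0.06. In mimic over normal, 5 rose and 2 fell (8.86%, beside 8.14% of all tested probes), and in untreated db/db over normal 1 rose (1.27%, beside 4.19%). These shares are of probes, whereas the 79 are genes, each read by its brightest probe. In a separate fit of 1 probe per gene, 2008 of 22368 passed in mimic over normal and 783 in untreated db/db over normal. In control miRNA over normal 0 passed, beside 1.65% of all tested probes, and in control miRNA over untreated db/db 0 passed, beside 0. HSF1 itself (Hsf1) differed by 0.16 in mimic over control miRNA (limma adjusted p = 0.688), and its relative Hsf2 by 0.28 (adjusted p = 0.620). The 15 HSP90-related genes tested had a median of 0.28 in that comparison, the 20 of the HSP70 and HSP110 list had -0.001, and 17 J-domain genes had 0.03. Of the 15 HSP90-related genes, 13 were higher on mimic replicate 1 than on replicate 2, beside 44.9% of all tested probes.

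Close partners of the set did not pass in mimic over control miRNA either. Stip1, which links HSP70 to HSP90, differed by 0.40 in mimic over control miRNA (limma adjusted p = 0.476), and Ahsa1, which speeds the HSP90 ATPase, by 0.37 (adjusted p = 0.594). The constitutive HSP90 gene Hsp90ab1 differed by 0.335 (adjusted p = 0.586), and by -0.61 in untreated db/db over normal (adjusted p = 0.0967), close to Hsp90aa1. Bag3, an HSP70 cochaperone induced by HSF1, differed by 0.35 (adjusted p = 0.581), and the J-domain gene Dnaja1 by 0.40 (adjusted p = 0.520). The HSP110 relatives of Hsph1 differed by -0.09 (Hspa4) and 0.31 (Hspa4l, adjusted p = 0.724), the mitochondrial HSP70 gene Hspa9 by -0.09, and the HSP90 cochaperone gene Fkbp4 by 0.04. The collagen chaperone gene Serpinh1 differed by 0.605 (adjusted p = 0.549), with 2.68 and 1.84 after the mimic and 1.77 and 1.54 after control miRNA. The small heat shock protein gene Cryab differed by -0.09, and its normal arrays lay far apart, at 6.12 and 4.61, with replicate 1 high as for Hspb1. Hspa5, the HSP70 of the endoplasmic reticulum, differed by 0.42 (adjusted p = 0.614). None of these differences reached the 0.80 of Hsph1, a gap between genes that was not tested. Several rested mostly on mimic replicate 1. On replicate 2, Ahsa1 was 5.49, beside 5.44 at most after control miRNA, Hsp90ab1 6.29 beside 6.20, and Bag3 2.745 beside 2.67. Hspa5 (5.72) and Hspa4l (1.17) lay there below control miRNA replicate 2 (5.79 and 1.34). Stip1 (1.17, beside 1.004 at most) and Dnaja1 (5.24, beside 5.04) stood further above control miRNA on replicate 2.

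The genes of these lists that passed did so against normal kidney, and the furthest from 0 were the same few genes in most comparisons. In mimic over normal, Hspb8, a small heat shock protein that works with Bag3, rose by 2.16 (limma adjusted p = 0.0252), with log2 levels of -0.60 and -1.58 after the mimic and -2.94 and -3.56 in normal kidney. Fkbp5, an HSP90 cochaperone induced by glucocorticoid, rose by 1.90 (adjusted p = 0.0401), and the J-domain gene Dnajb4 rose by 1.10 (adjusted p = 0.0364). Hspb7 rose by 0.87 (adjusted p = 0.0334), and the haem oxygenase gene Hmox1 by 0.68 (adjusted p = 0.0472). Dnajc2, a ribosome-bound J-domain protein, fell by 0.785 (adjusted p = 0.0214), and the lens crystallin gene Cryaa fell by 2.41 (adjusted p = 0.00967). Hspb7 also rose in untreated db/db over normal, by 0.92 (adjusted p = 0.0407). Fkbp5 was furthest from 0 among the 79 in mimic over control miRNA, at 1.66 (adjusted p = 0.292), followed by Hspb8 at 1.035 (adjusted p = 0.470) and Cryaa at -0.89 (adjusted p = 0.436). The same genes led in mimic over untreated db/db, at 1.11, 1.08 and -1.03. In untreated db/db over normal, Cryaa was at -1.38 (adjusted p = 0.0529) and Hspb8 at 1.08 (adjusted p = 0.135), and in control miRNA over normal Cryaa was at -1.52, Hspb8 at 1.13 and Hspb7 at 0.87, with none past the threshold. In control miRNA over untreated db/db, Fkbp5 was at -0.56, Hspb9 at -0.305 and Dnajb2 at 0.23 (adjusted p = 1 for each). Hspb8 thus lay higher in all 3 diabetic groups than in normal kidney, the opposite of Hsph1 in untreated db/db mice.

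Promoter sequence was read for 8 of the 10 genes from RefSeq on GRCm38.p6, as windows from 250 bases before to 50 bases after each annotated start. A pair of adjacent heat shock units was searched as GAANNTTC and as TTCNNGAA. Both are their own reverse complement, so either strand gives the same matches, and they can overlap. Of 11 windows, 8 held at least 1 match, covering 7 of the 8 genes, whereas 15.1% of 32851 promoters held one. These 8 windows are not separate sequences. The 2 Hsph1 windows, the Hspa1a and Hspa1b windows, and the Hspe1 and second Hspd1 windows each repeat most of the same bases. A run of 3 units, which is either pair extended by the next unit, occurred in Hsph1, Chordc1, Hspd1 and Hspe1 and in 0.603% of all promoters; this run was chosen after the pairs were seen. The windows of Chordc1, Hsph1, Hspe1 and Hspa1a are printed because they carry the most units, the shared mitochondrial promoter and the single pair of the inducible HSP70 genes. Capitals mark the matched bases, 5′ to 3′ on the strand of the gene.
Chordc1, chr9:18292017-18292316 (GRCm38.p6, plus strand): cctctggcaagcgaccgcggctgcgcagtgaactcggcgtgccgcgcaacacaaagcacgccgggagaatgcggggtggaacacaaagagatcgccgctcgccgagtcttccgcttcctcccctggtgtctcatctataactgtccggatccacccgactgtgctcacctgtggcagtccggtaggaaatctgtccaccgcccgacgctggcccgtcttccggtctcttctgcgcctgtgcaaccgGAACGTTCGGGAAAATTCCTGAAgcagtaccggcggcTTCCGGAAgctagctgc
Hsph1, start 1, chr5:149636287-149636586 (GRCm38.p6, minus strand): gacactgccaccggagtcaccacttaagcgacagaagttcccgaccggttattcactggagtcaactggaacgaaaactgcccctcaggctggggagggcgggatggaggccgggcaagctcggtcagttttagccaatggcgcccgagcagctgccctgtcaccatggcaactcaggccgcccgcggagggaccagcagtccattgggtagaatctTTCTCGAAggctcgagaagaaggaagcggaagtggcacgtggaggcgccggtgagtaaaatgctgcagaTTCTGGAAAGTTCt
Hspe1, chr1:55087898-55088197 (GRCm38.p6, plus strand): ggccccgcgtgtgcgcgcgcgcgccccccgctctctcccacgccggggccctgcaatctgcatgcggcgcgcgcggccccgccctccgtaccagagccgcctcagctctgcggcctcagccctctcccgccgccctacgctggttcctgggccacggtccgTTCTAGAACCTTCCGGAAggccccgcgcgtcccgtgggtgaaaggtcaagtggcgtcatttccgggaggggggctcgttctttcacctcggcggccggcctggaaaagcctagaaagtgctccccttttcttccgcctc
Hspa1a, chr17:34972107-34972406 (GRCm38.p6, minus strand): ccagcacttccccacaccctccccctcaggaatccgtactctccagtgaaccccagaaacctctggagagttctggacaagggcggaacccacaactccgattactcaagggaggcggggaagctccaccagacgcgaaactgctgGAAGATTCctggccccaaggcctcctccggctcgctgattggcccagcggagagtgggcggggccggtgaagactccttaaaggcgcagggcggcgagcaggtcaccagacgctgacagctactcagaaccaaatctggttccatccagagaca

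Chordc1 held 5 matches, 2 of GAANNTTC and 3 of TTCNNGAA, from 4 bases before to 40 bases after its start. Hsph1 held the same 3 matches in both of its overlapping windows, and Hspb1 held 2, at 117 and 97 bases before its start. Hspa1a and Hspa1b held 1 each, 104 bases before the start, in windows that differ at 4 of 300 positions. The second of the 2 Hspd1 windows shares 285 bases with the Hspe1 window on the opposite strand, so this pair holds the same 3 matches. The first Hspd1 window held none. Dnajb1 held none in either window, although its mimic arrays stood apart, and Hspd1 and Hspe1 held a run of 3 units and barely differed between the db/db groups. A match describes these letters only, and factor binding was not measured.

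**Figure D4:**
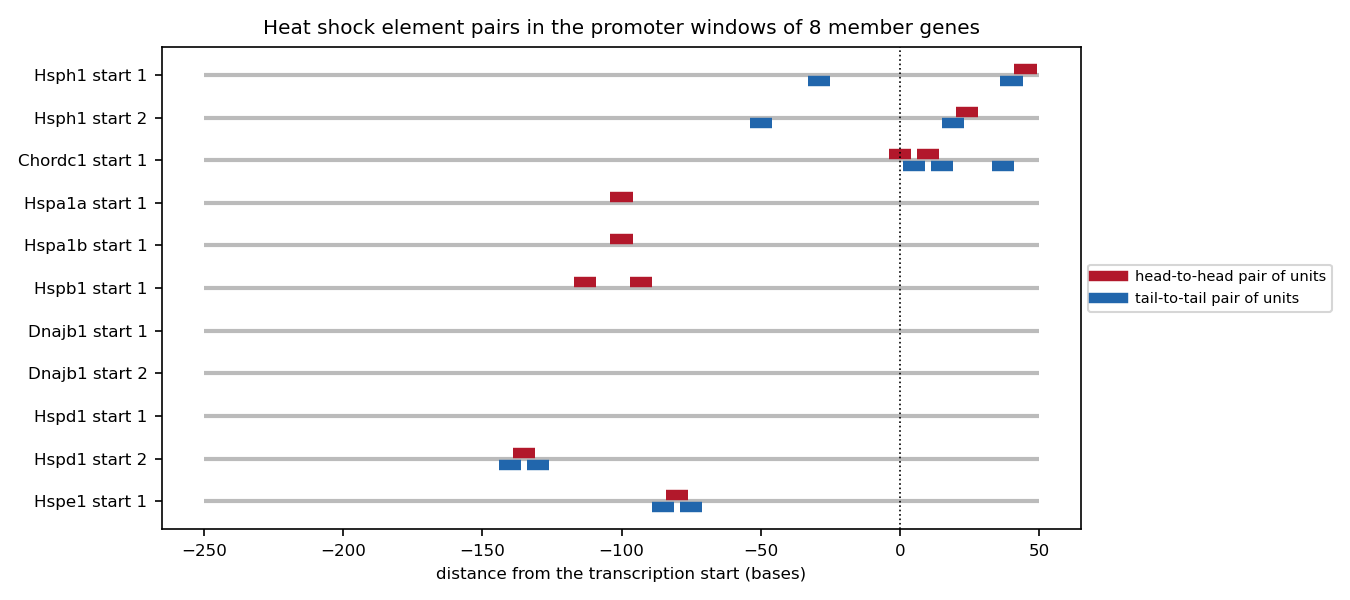
Position of GAANNTTC matches (red, head-to-head units) and TTCNNGAA matches (blue, tail-to-tail units) in the 11 promoter windows of 8 genes, with distance from the transcription start in bases on the horizontal axis. Matches cluster around the start in Chordc1 and Hsph1 and lie upstream in the HSP70, Hspb1, Hspe1 and second Hspd1 windows. The first Hspd1 window and both Dnajb1 windows hold none.

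The natural mature miR-181b-5p of the mouse is shown for reference, from RefSeq, with its seed (bases 2 to 8) in capitals; the same mature sequence comes from Mir181b-1 at chr1:137966650-137966673 and Mir181b-2 at chr2:38853845-38853868, both on the plus strand of GRCm38.p6.
mmu-miR-181b-5p: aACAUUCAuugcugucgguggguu
The sequence of the synthetic mimic is not given in the sources used here, and pairing of this seed with chaperone mRNAs was not analysed here.

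The genes most like the set were taken by the correlation of their level with the mean standardized level of the 10 genes over the 8 arrays. The score was 1.29 and 0.24 for the mimic, -0.475 and -0.54 for control miRNA, -0.56 and -0.70 for untreated db/db, and 0.79 and -0.05 for normal kidney. The closest were N4bp1 (r = 0.984), Prr5 (0.982), Exosc1 (0.980) and the clock transcription factor gene Arntl (0.980), followed by ENSMUST00000169692 (0.978) and Ppp1r8, Prp2 and Nagpa (0.968 each), over 8 arrays. Arntl had log2 levels of -0.30 and -1.55 after the mimic, -3.01 and -2.58 after control miRNA, -2.76 and -2.90 in untreated db/db, and -0.57 and -2.27 in normal kidney. As with Hspb1, replicate 1 lay far above replicate 2 in the mimic and normal groups. With 8 arrays in 4 groups, a high r needs only the same few arrays to be high.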

How the data were processed

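Kidney RNA was labelled with Cy3 and hybridised to 8 one-colour Agilent arrays, per the labels' protocols. Each deposited scanner file, made with Agilent Feature Extraction 12.0.3.1 per the submitters' processing notes, gives a background-subtracted intensity per spot per the file headers. A second deposited table gives a linear ratio of 75th-percentile-scaled intensity to each probe's median, a scale found from its values (r from 0.9995 to 0.9999 with scanner values), and its column medians were 0.971 to 1.077. It rises with intensity and was used as an alternative.

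From the deposited intensity, spots of a probe were averaged, 4 probes were dropped for outlier calls, values were divided by the array's 75th percentile and log2 was taken. The 33639 probes that both arrays of any group read well above background were fitted with limma 3.58.1 in R 4.3.3 as 4 group means over 8 arrays, with 4 residual and 2.37 prior degrees of freedom and Benjamini-Hochberg adjustment over all tested probes. Where 1 value per gene is given, it is that of the probe brightest over all arrays. The text names every member, the genes of the chaperone lists that passed, are close partners or were the 3 furthest from 0 in a comparison, and the 8 genes of highest correlation with the set. The members and lists were chosen with earlier results of these data known, so no list is independent evidence. Replicates are separate mice as far as the labels' group sizes say. Alternatives covered normexp background correction with an offset of 50, quantile normalization, other filters, the deposited ratio, 1 probe per gene, a variance trend, a replicate block, fits of 2 groups only and each array left out. Probe coordinates are those of the array annotation on mm9. Intensities give no read depth, and precision is limited by 2 arrays per group.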

Additional observations from a re-analysis of the deposited data

How the results depend on the processing

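Gene-level log2 differences kept their direction and side of the threshold in 967 of 1020 combinations of gene, comparison and setting; 20 gained a call and 33 changed sign. The single call in untreated db/db over normal (1408 of all 33639 tested probes) became 3 probes with normexp background correction (4260 of all). With a variance trend it became 2 (2156 of all). It became 0 without the filter on dim probes (380 of 56601) and with the deposited ratios (1290 of 33639). The count was also 0 with 1 probe per gene (783 of 22368) and with the replicate block (791 of 33639). The labels do not say whether replicate numbers pair the mice. Deviations between replicates correlated weakly between groups over all tested probes (r from -0.028 to 0.161), which cannot settle it. In mimic over normal (0 called, 2739 of all probes), 2 probes passed with normexp (3605 of all), quantile normalization (2210) or the trend (3086). There, 1 probe passed without the filter (1477 of 56601) or with the filter on all 8 arrays (2465 of 28588). The test among the 4 groups (0 called) gave 1 with normexp, the stricter filter or the trend, and 0 to 7 when 1 array was left out. Leaving out 1 array gave 0 to 1 in control miRNA over normal, 0 to 6 in mimic over untreated db/db and 0 to 4 in mimic over control miRNA, and the upper values of the last pair came without mimic replicate 2. Counts of probes whose groups did not overlap, an alternative chosen after seeing the data, stayed within 1.5 times throughout, although a count with an array left out cannot fall. Over all tested probes, calls ran from 45 to 5053 in untreated db/db over normal (1408 as reported, 791 with the replicate block), from 32 to 3556 in control miRNA over normal (556, 256 with the block) and from 43 to 8571 in mimic over normal (2739, 2138 with the block). The cause of these shifts was not tested. For the test among the 4 groups, calls over all tested probes were not counted under the alternatives. Its chaperone counts there have no share to be set against, and no lean of the chaperones is read from them.

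Sign changes concerned small differences or groups with wide spread. With quantile normalization, Hspd1 was -0.079 in mimic over untreated db/db and -0.1 in mimic over control miRNA. With the deposited ratios, Hspe1 was 0.002 in mimic over normal and Hspd1 -0.011 in control miRNA over untreated db/db. With 1 array left out, mimic over normal ran from -0.246 to 1.11 for Hspa1a, -0.968 to 1.534 for Hspa1b, -0.336 to 1.198 for Hspb1, -0.641 to 0.011 for Hsp90aa1, -0.182 to 0.1 for Hspe1 and -0.194 to 0.426 for Hsph1. Mimic over untreated db/db ran from -0.014 to 0.268 for Hspe1. Mimic over control miRNA kept its sign for all 10 genes when 1 array was left out, with ranges of 0.583 to 1.026 for Hsph1, 0.41 to 0.866 for Chordc1, 0.298 to 0.676 for Hspa8, 0.272 to 0.68 for Dnajb1, 0.197 to 0.848 for Hsp90aa1, 0.325 to 1.636 for Hspb1 and 0.305 to 0.834 for Hspa1b. Control miRNA over normal ran from -0.726 to 0.63 for Hspa1a, -1.537 to 0.965 for Hspa1b, -1.317 to 0.217 for Hspb1, -0.291 to 0.087 for Hspa8 and -0.026 to 0.169 for Dnajb1. Untreated db/db over normal ran from -0.818 to 0.539 for Hspa1a, -1.62 to 0.881 for Hspa1b, -1.36 to 0.174 for Hspb1, -0.29 to 0.013 for Hspa8 and -0.066 to 0.13 for Dnajb1. Control miRNA over untreated db/db ran from -0.073 to 0.239 for Hspa1b, -0.152 to 0.226 for Hspa8, -0.016 to 0.017 for Hspd1 and -0.032 to 0.111 for Dnajb1.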
